A study of Mus musculus with 2 samples.

Results

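Mast cells are granulated tissue cells that mature in skin under the control of KIT, a receptor tyrosine kinase, and its ligand Kitl (stem cell factor). Connective tissue mast cells of the dermis store carboxypeptidase A3, chymases and tryptases in their granules together with histamine, and release them when IgE bound to its high-affinity receptor is crosslinked. KIT is not restricted to this lineage, since melanocytes and their precursors also carry it, and Kitl is made by keratinocytes, fibroblasts and endothelial cells. The 10 genes described here were chosen by symbol and are the proteases Cpa3, Mcpt4, Cma1, Tpsb2 and Tpsab1, the IgE receptor chain Ms4a2, the histamine-forming enzyme Hdc, the transcription factor Gata2, Kit and Kitl. All 10 are among the 24346 gene symbols listed for each library.

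The libraries were made from dorsal skin wounds of C57BL/6J neonates, 1 WT library and 1 PU.1-/- library (labelled PU.1_KO), from littermates wounded at 1 day of age and harvested 24 h after a full-thickness incision of 1 cm. PU.1-/- mice carry the deletion in every cell from conception, and the WT library comes from littermates without it. Loss of PU.1 is known to remove macrophages and most neutrophils from birth. The authors describe the mice as also without mast cells and T cells, so a loss of mast cell transcripts was already part of the model. The design text calls the wounds excisional where the methods call them incisional, and how many pups went into a library is not given in the sources used here. With 1 library per genotype there is no replicate check. No p-values are given, and all intervals are 95% intervals that cover counting error only. Values are FPKM, the fragments of a gene scaled to the length of its exons and to the mapped fragments of the library, so levels can be compared between genes per unit of length. Lower and higher mean that the PU.1-/- value differs from the WT value at least 2-fold, with anything under 0.1 FPKM raised to 0.1.

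The gene that encodes PU.1, Spi1, had 35.4 FPKM in WT, and 1.45 FPKM remained in PU.1-/-, or 4.12% of the WT level (interval 2.94% to 5.60%). The low values of both libraries moved in steps of whole reads, from which a depth of 1.37e+07 fragments was estimated for WT and 1.58e+07 for PU.1-/-. Other tissue compartments also differed between the libraries. The summed FPKM of the skeletal muscle genes in the PU.1-/- library was 172% of the WT sum, that of the fibroblast genes 118% and that of the keratinocyte genes 114%, and the PU.1-/- library listed the 4 Y-linked genes examined at 0, while the WT library listed Xist at 0. Genotype, sex and the make-up of the tissue therefore cannot be told apart, and their part in the differences below was not tested.

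Upstream sequences of 3 protease genes that were nearly lost from the PU.1-/- wound are shown beside that of Kit, which was not. They are taken from the RefSeq windows on GRCm38.p6, the assembly of mm10, and run 5′ to 3′ on the strand of the gene up to the base before the RefSeq gene model. Capitals mark the letters GATA or, on the other strand, TATC, the core bound by GATA factors. The Cpa3 window is chr3:20242210-20242431 (minus strand), that of Mcpt4 chr14:56062311-56062560 (minus strand), that of Cma1 chr14:55944676-55944925 (minus strand) and that of Kit chr5:75574737-75574986 (plus strand).
Cpa3: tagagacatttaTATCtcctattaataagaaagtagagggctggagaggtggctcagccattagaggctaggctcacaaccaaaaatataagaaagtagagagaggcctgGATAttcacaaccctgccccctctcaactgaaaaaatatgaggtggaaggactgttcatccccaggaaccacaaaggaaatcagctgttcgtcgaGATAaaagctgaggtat
Mcpt4: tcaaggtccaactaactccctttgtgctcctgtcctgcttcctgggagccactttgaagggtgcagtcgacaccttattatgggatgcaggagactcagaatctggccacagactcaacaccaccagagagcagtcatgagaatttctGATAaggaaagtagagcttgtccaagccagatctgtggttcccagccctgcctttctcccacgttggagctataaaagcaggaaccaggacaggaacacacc
Cma1: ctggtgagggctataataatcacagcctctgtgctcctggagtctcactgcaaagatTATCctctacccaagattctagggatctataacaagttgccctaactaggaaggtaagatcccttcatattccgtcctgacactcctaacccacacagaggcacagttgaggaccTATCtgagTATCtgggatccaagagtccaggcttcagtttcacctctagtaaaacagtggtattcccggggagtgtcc
Kit: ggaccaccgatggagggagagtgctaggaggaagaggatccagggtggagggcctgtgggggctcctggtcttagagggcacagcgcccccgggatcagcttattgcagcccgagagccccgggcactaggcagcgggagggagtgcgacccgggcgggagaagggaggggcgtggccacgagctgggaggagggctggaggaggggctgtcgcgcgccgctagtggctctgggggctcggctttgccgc
Cpa3 and Cma1 held 3 GATA cores each, Mcpt4 held 1 and Kit held none. The Cpa3 sequence is printed over 222 bases, because the RefSeq gene model covers the rest of its window, whereas motifs were counted over the full 250 bases of every gene, which gave the same 3 cores for Cpa3. Of the 8 genes with such a window, 5 held a GATA core, and Ms4a2 had the most with 5, followed by Cpa3 and Cma1, Hdc with 2 and Mcpt4. No core was found in the windows of Gata2, Kit and Kitl. Over all 27025 genes with a window, 54.1% held 1 or more. Cores on the 2 strands that overlap were counted separately. The longer form AGATAA, or TTATCT on the other strand, was found in Cpa3, with 1 match, and in Ms4a2, with 3, against 10.3% of all windows. The letters GGAA or TTCC, the core of ETS factors such as PU.1, were found in all 8 windows and in 93.4% of all windows, and the longer GAGGAA or TTCCTC only in that of Kit among the 8, against 23.1% of all windows. A match describes the letters of the window and not a bound site. Tpsb2 and Tpsab1 have no window in the sequence table used.

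The PU.1-/- wound had lower values of 8 of the 10 genes and higher values of 0, while Kit and Kitl were neither. Over all listed genes, 4.34% were lower and 2.32% were higher by the same rule. Among the 13950 genes of at least 0.5 FPKM in WT, a level that all 10 genes reached, 5.36% were lower. The differences fell into steps. The granule proteases were at or near 0, Hdc and Gata2 were reduced in part, Kit was closer to its WT level, and Kitl was at its WT level. Expressed as log2 of PU.1-/- over WT, the median of the 10 genes was -4.36, against -0.01 for all 16298 genes that reached 0.1 FPKM in either library. That median lies in the gap between the proteases and the remaining genes, and with the 3 genes listed at 0 placed at the level of 3 reads it was -3.86. In bulk tissue, fewer cells of a type and less RNA per cell cannot be told apart. Among the 1862 genes that reached 50 FPKM in WT, a level reached by Cpa3, Mcpt4, Cma1 and Tpsb2, 4.56% were lower and 38 were at least 100-fold lower once values under 0.1 FPKM were raised to 0.1.

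**Figure D1:**
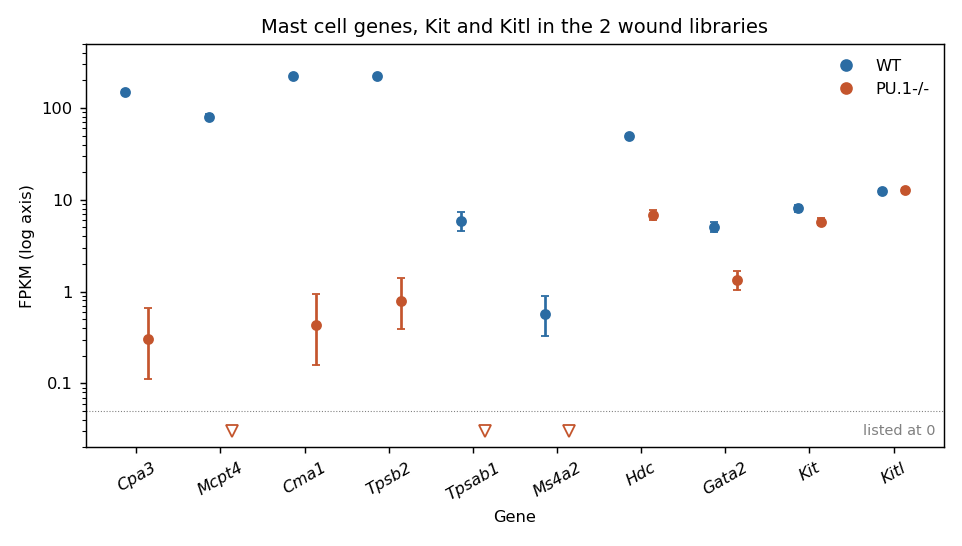
FPKM (log axis) of the 10 genes in the WT and PU.1-/- libraries, 1 library each, with 95% Poisson counting intervals from estimated reads; open triangles below the dotted line are genes listed at 0. Cpa3, Cma1 and Tpsb2 lie above 100 FPKM in WT and below 1 FPKM in PU.1-/-, while the Kitl points lie side by side.

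Cpa3, the mast cell carboxypeptidase (chromosome 3 of mm10, 20215616 to 20242209), was at 150.3 FPKM in the WT wound, and 0.303 FPKM was left in the PU.1-/- wound. These values stand for about 2581 and 6 reads, and the PU.1-/- level was 0.202% of the WT level (interval 0.0743% to 0.441%). Cma1, a mast cell chymase (chromosome 14, 55941451 to 55944675), was at 223 FPKM in WT, and 0.436 FPKM was left in PU.1-/-, about 2685 and 6 reads. Its level was 0.195% of WT (0.0714% to 0.424%). The percentages of Cpa3 and Cma1 were close, but each rests on about 6 reads in PU.1-/-, so a shared factor is not shown. Mcpt4, the other chymase (chromosome 14, 56059744 to 56062310), was at 80.5 FPKM in WT, about 1005 reads, and was listed at 0 in PU.1-/-, where 3 reads would have been worth 0.209 FPKM.

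Tpsb2, a tryptase (chromosome 17, 25366308 to 25368096), had 224 FPKM in WT, of which 0.788 FPKM was left in PU.1-/-, about 2821 and 11 reads. It kept 0.353% of its WT level (0.169% to 0.609%), an interval that overlaps those of Cpa3 and Cma1. Tpsab1, the neighbouring tryptase gene (chromosome 17, 25343245 to 25345562), which RefSeq lists as a transcribed pseudogene in C57BL/6J, was at 5.83 FPKM in WT, about 77 reads, and was listed at 0 in PU.1-/-. All 5 protease genes were thus lower, and their WT levels spanned from 5.83 to 224 FPKM. Together they summed to 684 FPKM against 1.53 FPKM, or 0.223% of the WT sum. In the WT wound Tpsb2 and Cma1 each made up 32.7% of that sum, Cpa3 22.0%, Mcpt4 11.8% and Tpsab1 0.853%.

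Reads of close relatives could be exchanged between these genes, so the transcripts were compared in windows of 75 bases, the length of a read. With up to 2 mismatches allowed, no window of Tpsb2 or Tpsab1 matched the other or any of the further protease transcripts compared, and the same held for Cpa3 and Cma1. Mcpt4 shared 10.1% of its 1034 windows with Cma2, a chymase gene of the same locus, and smaller shares with Mcpt9 (2.22%) and Mcpt1 (0.677%). Cma2 itself had 2.65 FPKM against 0.598 FPKM, about 27 and 7 reads. Its WT value is uncertain, because reads of the more abundant Mcpt4 could be counted there. In PU.1-/- Mcpt4 was listed at 0, so whether Cma2 was lower is uncertain as well. Exact windows were also searched in all GENCODE transcripts, which found 1.70% of the Cma1 windows in the gene model Gm48934.

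The chymase genes lie in a cluster with other granule proteases, and the genes around Mcpt4 and Cma1 were read out by position, a choice made after their values were seen. From Cma1 to Gzmb (chromosome 14, 55941451 to 56262334) RefSeq places 26 genes, of which 18 are listed in the libraries. Of these, 7 were lower, with Cma2 among them under the limit given above, 0 were higher and 8 were at 0 in both libraries. Beside Cma1, Mcpt4 and Cma2 the lower genes were Mcpt8, a basophil protease, with about 19 reads in WT and 1 in PU.1-/-, Ctsg (cathepsin G), at 0.456 and 0.0795 FPKM, Gzmb (granzyme B), at 0.239 and 0.0521 FPKM, and the pseudogene Mcpt-ps1, at 0.249 FPKM and listed at 0. Ctsg and Gzmb rest on at most 5 reads in a library, and their counting intervals include equal levels. The mucosal mast cell proteases Mcpt1 and Mcpt2 were listed at 0 in both libraries and at 0.0950 and 0.0827 FPKM, so the chymase transcripts of the WT wound were almost all of the connective tissue kind. The pseudogene Gm5801, which lies between them and Cma2, was at 61.3 and 63.5 FPKM. In the tryptase locus on chromosome 17, Tpsg1 followed Tpsab1 and Tpsb2 at 0.502 and 0.125 FPKM, about 7 and 2 reads, with an interval that also includes equal levels.

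**Figure D2:**
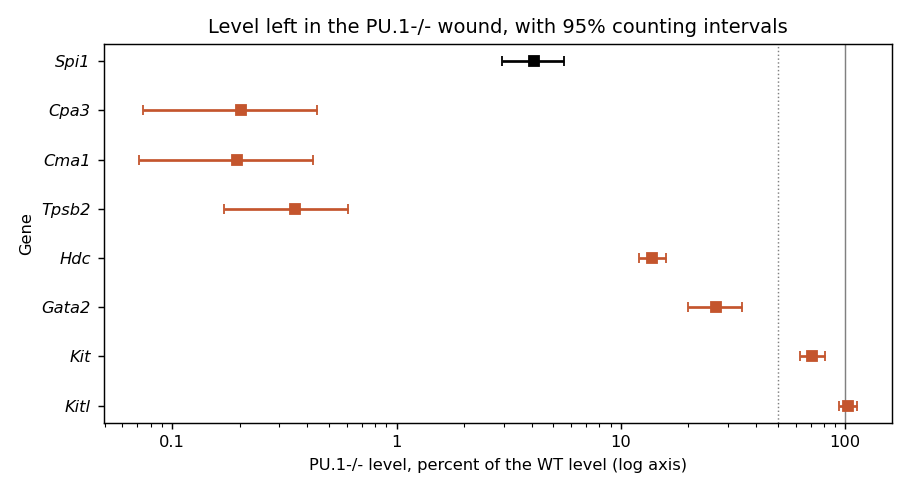
PU.1-/- level as a percent of the WT level (log axis) for Spi1 (black) and the 7 described genes with reads in both libraries (orange), with 95% exact binomial counting intervals; the solid line marks 100% and the dotted line 50%. The 3 proteases lie below 1%, Hdc and Gata2 between 10% and 50%, Kit above 50% and Kitl at 103%.

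Ms4a2, the beta chain of the high-affinity IgE receptor (chromosome 19, 11615517 to 11623790), was the lowest of the 10 genes, at 0.565 FPKM in WT and listed at 0 in PU.1-/-. Its GENCODE transcripts run from 647 to 2391 bases, so the WT value stands for about 3 to 17 reads, and the difference rests on few reads. The other chains of that receptor had more reads. Fcer1a, the alpha chain, was at 5.14 FPKM in WT and listed at 0 in PU.1-/-. Fcer1g, the gamma chain that many myeloid cells share, was at 190 and 0.847 FPKM. All 3 chains were therefore lower in the PU.1-/- wound.

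Hdc, which converts histidine to histamine (chromosome 2, 126593659 to 126624025), was at 49.96 FPKM in WT, with 6.91 FPKM left in PU.1-/-, about 1505 and 239 reads. The level left was 13.8% of WT (interval 12.0% to 15.9%), a ratio of 7.23. In the WT wound Hdc was below each of the 4 abundant proteases, and in the PU.1-/- wound it was above all of them. Hdc is also known from other myeloid cells. Of the 10 neutrophil genes examined, 8 were lower, and they differed among themselves. S100a8 and S100a9, which are also expressed by wound keratinocytes and make up most of the summed FPKM of the list, kept 32.3% and 28.5% of their WT levels, and the sum was at 29.3%. Ngp, Retnlg, Ltf and Csf3r, at 311, 215, 37.1 and 1.97 FPKM in WT, were listed at 0 in PU.1-/-, while Camp kept 30.8%. Cxcr2, with 63.8% of its WT level, was neither lower nor higher by the rule. Mpo, with 43.5%, was neither only because its PU.1-/- value was raised to 0.1 FPKM. It was at 0.185 and 0.0805 FPKM, about 6 and 3 reads. Of the 10 macrophage genes all were lower, with C1qa, C1qb, C1qc, Adgre1 and Tyrobp listed at 0. The part of either cell type in the Hdc that was left was not tested.

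Gata2, a transcription factor of mast cells and of early blood and endothelial cells (chromosome 6, 88193891 to 88207032), was at 5.06 FPKM in WT, with 1.34 FPKM left in PU.1-/-, about 234 and 71 reads. It kept 26.6% of its WT level (19.98% to 34.6%), an interval above that of Hdc, although the intervals overlap with the smallest read numbers that give these ratios. None of the 9 endothelial and lymphatic genes was lower, and Vwf was higher, at 2.82 and 5.90 FPKM. Their summed FPKM in the PU.1-/- library was 107% of the WT sum. The genes of this list differed among themselves, from 56.1% of the WT level for Lyve1 to 209% for Vwf. Among the genes described, Gata2 was the one closest to the threshold on the lower side, with a ratio of 3.76, and Kit, with 1.40, the closest on the other side.

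Kit itself (chromosome 5, 75574987 to 75656722) was at 8.08 FPKM in WT, against 5.77 FPKM in PU.1-/-, about 560 and 459 reads. Its level was 71.4% of WT (interval 63.0% to 80.9%), so the difference exceeded the counting error of the estimated reads but did not reach the threshold of 2. With the smallest read numbers that give the same ratio, its interval included equal levels, from 0.908 to 2.17. Kit kept a larger share of its WT level than Gata2 or Hdc, with intervals that do not overlap. Melanocyte genes were measured beside it. None of the 8 was lower or higher, the median log2 ratio was 0.11, and Dct, a pigment enzyme, was at 86.2 and 98.4 FPKM. The nearest to Kit among them was Ednrb, an endothelin receptor of melanocyte precursors and other cells, which kept 71.0% of its WT level. It stood apart from the rest of the list, which ran from 97.6% of WT for Tyrp1 to 130% for Sox10. Mitf, the factor that melanocytes and mast cells share, was at 5.99 and 6.04 FPKM.

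Kitl, the ligand (chromosome 10, 100015615 to 100100416), was at 12.4 FPKM in WT, against 12.8 FPKM in PU.1-/-, about 929 and 1096 reads. The level was 103% of WT, with an interval of 94.1% to 112% that holds 100%. In the WT wound Kitl stood below the 4 abundant proteases and Hdc, and in the PU.1-/- wound it was the most abundant of the 10 genes. In both libraries the ligand was higher than its receptor per unit of length. Of the cells that make Kitl, 0 of 10 fibroblast genes and 0 of 9 keratinocyte genes were lower or higher, and of the 9 endothelial and lymphatic genes only Vwf was past the threshold, being higher.

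The order of the levels in the WT wound was Tpsb2, Cma1, Cpa3, Mcpt4, Hdc, Kitl, Kit, Tpsab1, Gata2 and Ms4a2. Tpsb2 and Cma1 could not be ordered within their counting intervals, nor could Tpsab1 and Gata2. In the PU.1-/- wound the order was Kitl, Hdc, Kit, Gata2, Tpsb2, Cma1 and Cpa3, where Hdc and Kit overlapped, as did each neighbouring pair from Gata2 downwards. Of all genes, the 3 nearest to Tpsb2 in the plane of both log2 levels were Fcer1g, Cma1 and Ccl6, a chemokine at 429 and 0.871 FPKM, at distances of 0.25, 0.85 and 0.95, a likeness over 2 libraries only.

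**Figure D3:**
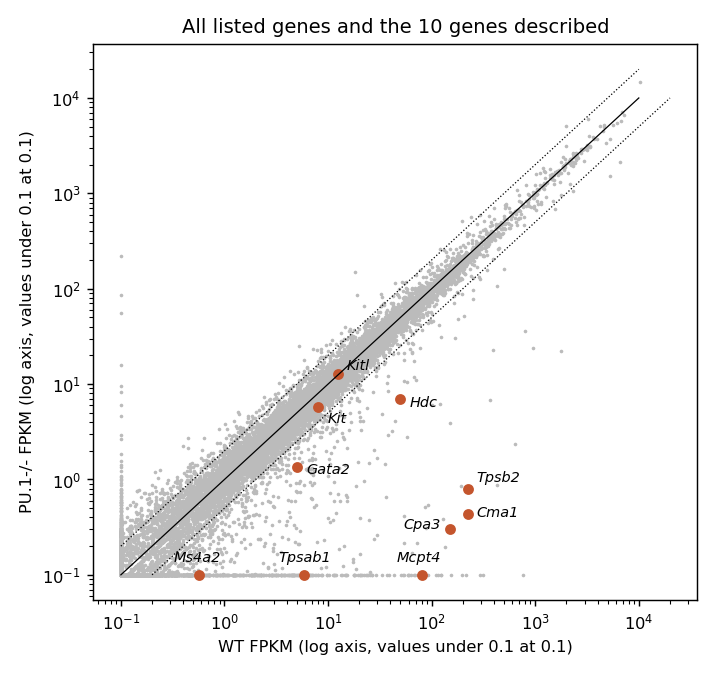
FPKM in the WT library (horizontal) and the PU.1-/- library (vertical) of all 24346 listed genes (grey) on log axes, with values under 0.1 drawn at 0.1; the 10 described genes are orange, the solid line marks equal levels and the dotted lines a ratio of 2. The proteases sit far below the dotted line, and Kit and Kitl lie between the lines.

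Further genes of the mast cell were read from lists, with the WT value before the PU.1-/- value. Of the 10 other proteases of mast cells and basophils, 9 are listed, 2 of them at 0 in both libraries. Of the remaining 7, 6 were lower, against 4.34% of all listed genes. All had low WT levels, of at most 2.65 FPKM. The counting intervals of Ctsg, Gzmb and Tpsg1 include equal levels, and the call of Cma2 is uncertain for the reason given above. Mcpt8 and Prss34, at about 19 and 17 reads in WT and 1 each in PU.1-/-, had intervals that exclude equal levels. Of 10 surface proteins of mast cells, most of them receptors, 7 were lower. Mrgprb2, the receptor for basic secretagogues, was at 2.36 FPKM in WT, and its relative Mrgprb1 at 4.51 FPKM, and both were listed at 0 in PU.1-/-, as were Cd200r3, at 3.13 FPKM in WT, and Adora3, an adenosine receptor, at 2.80 FPKM. Il1rl1, the receptor of Il33 that other skin cells also express, was among the 3 that were neither, at 164 and 140 FPKM, with the ectoenzyme Enpp3, at 0.912 and 1.56 FPKM, and the inhibitory receptor Siglecf, at 0.157 FPKM and listed at 0.

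Of the 8 genes of granule storage, 3 were lower. Srgn, the serglycin core to which granule proteases bind, was at 368 and 6.83 FPKM. Tph1, which starts the synthesis of serotonin, was at 4.06 FPKM and listed at 0, and Slc6a4, the serotonin transporter, was at 9.94 and 0.395 FPKM. The tetraspanin Cd63, found on granules and lysosomes of most cells, was at 662 and 666 FPKM, and Ndst2, which modifies heparin, at 10.6 and 8.59 FPKM. Of 6 genes of lipid mediators, 2 were lower. Alox5 was at 4.49 FPKM and listed at 0, and its partner Alox5ap at 87.3 and 0.313 FPKM, whereas Hpgds, a prostaglandin D synthase, kept 72.6% of its WT level.

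Of 9 further transcription factors 1 was lower, Gata1, at 0.639 and 0.0742 FPKM, about 15 and 2 reads. Runx1, a blood and epithelial factor, was at 12.2 and 15.3 FPKM. Among the 19 genes listed under KIT signalling, not all of which are particular to KIT, 7 were lower. These were the kinases Lyn, at 20.2 and 4.09 FPKM, Syk, at 8.57 and 2.81 FPKM, and Btk, at 4.09 FPKM and listed at 0, the adaptor Lat, at 2.47 and 0.368 FPKM, the kinase subunit Pik3cd, at 2.47 and 0.718 FPKM, and the phosphatases Inpp5d, at 7.28 and 0.923 FPKM, and Ptpn6, at 21.0 and 3.31 FPKM. They are used throughout blood cells. The 12 that were neither included the widely used Grb2, at 43.3 and 38.3 FPKM, Ptpn11, at 49.1 and 49.7 FPKM, and Cbl, at 9.04 and 9.03 FPKM, while Plcg2 lay at the threshold with a ratio of 1.98. The basophil list, whose 5 genes also stand in the other lists, had 4 lower genes and a summed FPKM of 11.9 in WT and 0.163 in PU.1-/-. How much of the loss in any list belongs to mast cells, basophils or other blood cells was not tested.

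**Figure D4:**
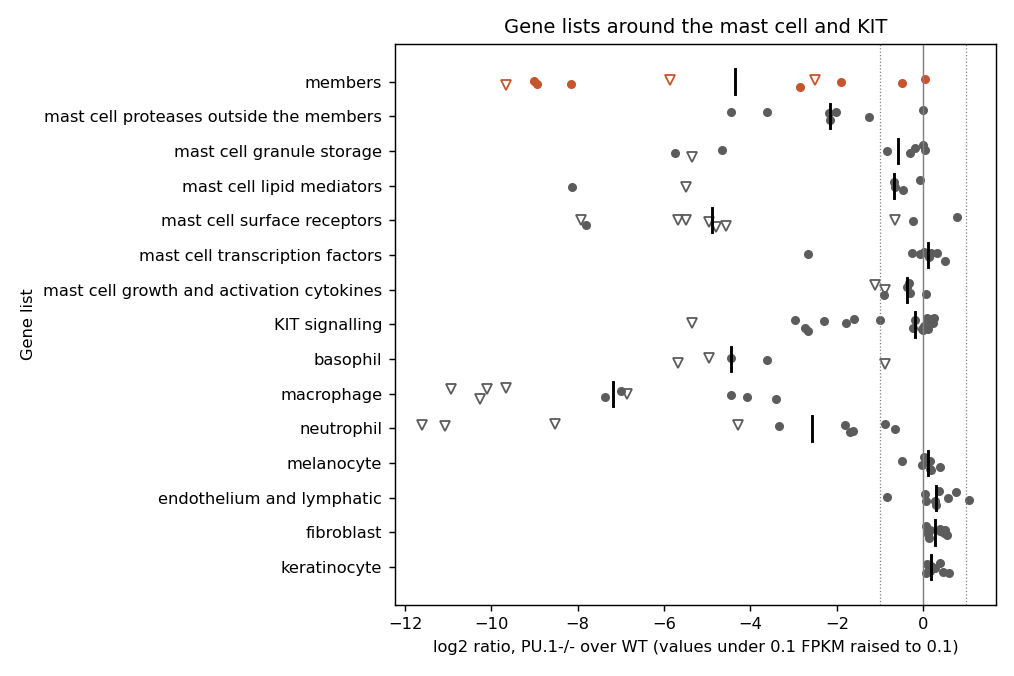
Log2 ratio (PU.1-/- over WT, values under 0.1 FPKM raised to 0.1) of each gene of the gene lists that was above 0 in 1 or both libraries; open triangles are genes listed at 0 in PU.1-/-, black bars the list medians, and dotted lines a ratio of 2. Most mast cell lists and the KIT signalling, basophil, macrophage and neutrophil lists extend far to the left. The mast cell transcription factors reach only -2.68 and the growth and activation cytokines only -1.12. The melanocyte, fibroblast and keratinocyte lists stay between the dotted lines.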

How the data were processed

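The authors sequenced stranded mRNA libraries as single-end reads of 75 bases, mapped them to mm10 and deposited FPKM values from Cuffnorm 2.2.1. The submitters' processing notes also name TopHat2 2.1.1, Bowtie2 2.2.8, SAMtools 0.1.18 and Cuffdiff 2.2.1. The annotation is not given in the sources used here. Such scaling makes a level relative to the rest of the library.

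Ratios were taken after values under 0.1 FPKM were raised to 0.1. Depth was estimated as the value at which low FPKM values, times the transcript length less an assumed fragment of 200 nt, came closest to whole reads. Of values of 1 to 5 reads, 77.5% (WT) and 78.4% (PU.1-/-) were within 0.1 of a whole number. Both steps used genes with 1 linked transcript longer than 600 nt. The depth was chosen for this closeness, so these shares are not an independent check. Reads were then estimated from the longest GENCODE transcript linked to RefSeq, known for 10 of 10 genes, and intervals are exact (Clopper-Pearson for ratios, Poisson for levels). The depth estimate, the fold calls, the read estimates and the intervals for ratios were tested on simulated data. The simulation used the same fragment and transcript lengths, so it did not test those assumptions. The Poisson intervals, the smallest read numbers, the motif counts and the window comparisons were not. Gene positions and windows are those of RefSeq on GRCm38.p6. No test across animals was possible. The genes and lists were chosen with earlier results of these data known. Named genes are the 10 genes, Spi1, the genes of the lists and the 3 nearest to the most abundant one, and the genes of the chymase locus were added after their values were seen. Alternatives of floor, pseudocount, scaling, fold threshold, filter and fragment length were tried. Intervals were computed with scipy 1.17.1, under Python 3.11.15.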

Additional observations from a re-analysis of the deposited data

How the results depend on the processing

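The count of 8 lower genes among the 10 stayed at 8 or 7 under each of the 10 alternatives of floor, pseudocount, scaling, fold threshold and filter, and the count of higher genes stayed at 0. Ms4a2 is lost with a floor or pseudocount of 1 FPKM or a filter at 1 or 5 FPKM, and Gata2 with a threshold of 4. Under the 6 alternatives of floor, pseudocount and scaling, the ratio of Hdc stayed between 6.45 and 7.23, that of Kit between 1.34 and 1.40 and that of Kitl between 0.943 and 0.975, whereas that of Gata2 ran from 2.58 to 3.76, Cpa3 from 116 to 496, Cma1 from 156 to 513 and Tpsb2 from 126 to 284. The ratios of Gata2 and of these proteases stayed past the threshold of 2, but the size of the protease ratios depends on the floor or pseudocount. The ratios of Mcpt4, Tpsab1 and Ms4a2, listed at 0 in PU.1-/-, are set by the floor and are not given. The median log2 ratio of the 10 genes, -4.36, was -2.70 with a floor of 1 FPKM, -6.98 with a floor of 0.01 FPKM, -2.73 with a pseudocount of 1 FPKM, -5.87 with a filter at 1 or 5 FPKM, and -3.86 with genes listed at 0 set to 3 reads, an alternative added after seeing the data. A lower floor counts a gene listed at 0 as a larger difference by construction. Over all genes, the 1057 lower and 565 higher genes became 463 and 164 with a floor of 1 FPKM, 1778 and 1220 with a floor of 0.01 FPKM, 461 and 89 with a pseudocount of 1 FPKM, 1867 and 1410 at a threshold of 1.5, 533 and 73 at a threshold of 4, 589 and 226 with a filter at 1 FPKM and 306 and 98 with a filter at 5 FPKM. The counting interval of the Kit ratio, from 1.24 to 1.59, ran from 0.908 to 2.17 when the smallest whole read numbers that give the ratio were used, 50 and 41 reads, so the Kit difference rests on the estimated read numbers. With such numbers the intervals of Hdc, 3.69 to 15.8, and Gata2, 2.19 to 6.78, overlap. No paired analysis was possible because each genotype has 1 library. Depth limits the values of the proteases in the PU.1-/- library, which rest on at most 11 reads each.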

Other observations

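Ligands other than Kitl that act on mast cells were measured in both wounds. Il33, an alarmin of epithelial and stromal cells, was at 101 FPKM in WT, against 53.8 FPKM in PU.1-/-. The ratio of 1.88 missed the threshold, with a counting interval of 1.78 to 1.99. Cxcl12, a stromal chemokine, was at 52.1 and 54.8 FPKM, and Tgfb1 at 35.4 and 27.1 FPKM. The type-2 cytokine genes were near 0, with Il3 and Il9 listed at 0 in both libraries, and Il4 and Il13 at 0.185 and 0.218 FPKM in WT and listed at 0 in PU.1-/-. Il13, with about 3 reads in WT, was the 1 lower gene of the 9 in this list.

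The enzymes that can release Kitl from the cell surface were not past the threshold. Mmp9, a matrix protease of neutrophils and of wound keratinocytes, was at 34.5 and 19.3 FPKM, Adam17 at 20.3 and 18.9 FPKM, and Adam33 at 1.05 and 0.891 FPKM.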
